A study of Mus musculus with 6 samples.

Results

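Interferon-stimulated genes are switched on in nearly every cell type when interferon reaches its receptor. Type I interferons act through a receptor made of Ifnar1 and Ifnar2 and the kinases Jak1 and Tyk2, and the resulting complex, which holds Stat2 and Irf9, binds the interferon-stimulated response element (ISRE) in the promoters of the responding genes. Interferon gamma acts through Ifngr1 and Ifngr2, and drives the immunity-related GTPases and guanylate-binding proteins most strongly. The products restrict viruses and intracellular bacteria, sense foreign RNA, or adjust the response itself, and in liver they are made by hepatocytes as well as by resident macrophages and other non-parenchymal cells.

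The 42 interferon-stimulated genes described here were chosen by symbol from a list of sensors, Oas, Ifi and Ifit genes, GTPases, STAT and IRF factors and other effectors. All 42 were found among the 18253 gene symbols of the study, and each was listed in all 6 libraries. The libraries came from total RNA of frozen livers of C57BL/6 mice, with an age label of postnatal day 21. In 3 of them the mice had received alpha-naphthylisothiocyanate (ANIT), a bile duct toxicant that causes cholestasis in rodents, together with celastrol, an anti-inflammatory triterpenoid from thunder god vine, and in 3 they had received ANIT without celastrol, all labelled with 5 days of treatment. No library of untreated mice was analysed here, so a difference is one between celastrol-treated and untreated cholestatic liver. The labels name no separate animals behind the replicates, so each p-value is against the variation among these samples, which may be technical only. Whether fewer cells of a type or less RNA per cell lies behind a lower value cannot be told apart in bulk tissue.

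Values are FPKM (fragments scaled to gene length and to the total of the library). Depth, estimated roughly from the steps between low values, was 18880000 to 19240000 reads per library with celastrol and 18820000 to 19540000 with ANIT, so 1 FPKM over 1 kilobase stood for 18.8 to 19.5 reads. The sum of FPKM was 582233 to 601233 with celastrol and 532840 to 546155 with ANIT (exact permutation p = 0.1, two-sided, the smallest that 3 against 3 libraries allow). Differences were tested across all genes with limma on log2(FPKM + 1), and a gene is called higher or lower with celastrol at a Benjamini-Hochberg adjusted p under 0.05. Over all 10593 tested genes the log2 fold change had a median of -0.17, which dividing by median-ratio size factors shifted to -0.02. The 7 hepatocyte markers summed to 24600 to 32990 FPKM with celastrol and 49850 to 62370 FPKM with ANIT, a gap that came from Alb (5341 to 10051 FPKM with celastrol and 29351 to 38656 FPKM with ANIT, called lower). The 6 others summed to 19260 to 23290 FPKM with celastrol and 20320 to 23710 FPKM with ANIT, with overlap, and among them Serpina1c was called higher.

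The promoters of some members carry the element through which interferon acts, and those below were chosen to set members that rose beside members that fell or did not pass. Windows of 250 bases before to 50 bases after each annotated start (RefSeq, GRCm38.p6) were available for 30 of the 42 members, and both strands were searched for the core of the ISRE, which is GAAA, any pair of bases and GAAA again. Capitals mark the match, each sequence is read 5′ to 3′ on the strand of its gene, and overlapping matches run together. Those of Ddx58 and Ifih1 lie just past the start and are cut to 30 bases.
Ifit1 (chr19:34640765-34640833, plus strand, 2 matches): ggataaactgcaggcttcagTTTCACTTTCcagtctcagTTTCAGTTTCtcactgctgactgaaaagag
Ifit3 (chr19:34583353-34583436, plus strand, 2 matches): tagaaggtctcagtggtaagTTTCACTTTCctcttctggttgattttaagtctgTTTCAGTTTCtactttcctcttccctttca
Oas3 (chr5:120777705-120777754, minus strand, 1 match): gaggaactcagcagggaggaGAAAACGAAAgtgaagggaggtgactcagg
Isg15 (chr4:156200855-156200916, minus strand, 3 matches): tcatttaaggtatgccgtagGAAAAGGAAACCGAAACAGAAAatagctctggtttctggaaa
Irgm2 (chr11:58214893-58214942, plus strand, 1 match): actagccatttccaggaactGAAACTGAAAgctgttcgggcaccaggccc
Gbp3 (chr3:142559979-142560034, plus strand, 2 matches): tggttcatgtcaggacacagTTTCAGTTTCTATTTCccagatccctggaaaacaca
Ddx58 (chr4:40239804-40239833, minus strand, 1 match): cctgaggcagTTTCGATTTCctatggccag
Ifih1 (chr2:62646206-62646235, minus strand, 1 match): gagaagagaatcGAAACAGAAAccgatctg
Gbp2 (chr3:142620584-142620633, plus strand, 1 match): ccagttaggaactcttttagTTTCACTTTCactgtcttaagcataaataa
Rsad2 (chr12:26456543-26456592, minus strand, 1 match): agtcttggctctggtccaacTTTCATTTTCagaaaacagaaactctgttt

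The motif was found in 18 of the 30 members with a window (60.0%), against 3.99% of all 27025 genes with a window and 3.72% of the 8156 tested genes with one. It was in 8 of the 13 members called higher with celastrol, in both members called lower that had a window, in 7 of the 13 that did not pass the threshold and in 1 of the 2 below the filter on low values. The motif therefore stood in rising, falling and uncalled members. The shorter gamma-activated sequence, TTCNNNGAA, was in 9 of the 30 members (30%), against 9.55% of all genes with a window. A match is a run of letters and not a measured site.

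**Figure D1:**
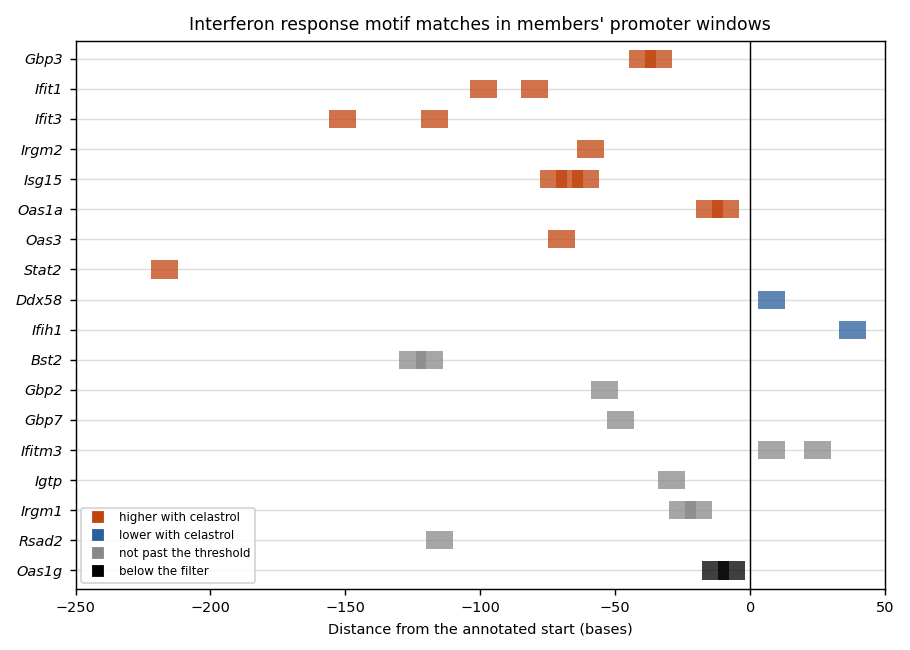
Position of each match to the core of the ISRE (either strand, 10 bases wide) relative to the annotated start (vertical line), for the 18 members with a match among 30 with a promoter window of 250 bases before to 50 after the start; darker parts are overlapping matches. Matches of the members higher with celastrol lie before the start, those of Ddx58 and Ifih1, lower with celastrol, lie after it, and uncalled members have both. Only 2 lower members had a window, and a link between position and direction was not tested.

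Celastrol-treated livers had higher levels of most interferon-stimulated genes than livers given ANIT alone. In 24 of the 42 members all 3 celastrol libraries lay above all 3 ANIT libraries (57.1%, against 7.39% of all 18253 listed genes), and in 4 all lay below (9.52%, against 24.1% of all listed genes). Log2 fold changes were positive for 33 members and negative for 9, and positive for 38.3% of all listed genes. By limma without a filter on low values, 15 of the 42 passed as higher (35.7%, background 2.26%) and 3 as lower (7.14%, background 9.18%). The median log2 fold change of the 42 was 0.55, against -0.04 for all genes in that fit.

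With genes kept only where at least 3 libraries reached 1 FPKM, 39 members were tested and 18 passed as higher (background 4.41%), 3 as lower (background 20.6%), with a median log2 fold change of 0.43. Oas1g, Ifit2 and Mx1 lay below this filter, and their adjusted p-values below come from the fit without it. Oas2, Oas3, Oasl2, Ifi44 and Gbp3 passed the filter only through their celastrol libraries, so their calls add nothing to the count. Of the other 34, 13 were higher and 3 lower. Among these 13, Oas1a, Ifi27l2a, Ifit1 and Xaf1 reached 1 FPKM in all 3 celastrol libraries but not in all 3 ANIT libraries. Of the 27 members at 1 FPKM or more in all 6 libraries, 9 were higher and 3 lower, with no background counted for such genes. With a filter on the mean over all libraries (a mean of at least 1 FPKM) 17 of 38 were higher (background 4.29%) and 3 lower (background 20.3%). Of the 13 higher calls among the 34 members that passed the filter otherwise, 7 held whichever library was left out. Those of Oas2, Oas3 and Oasl2 held too, but these fits kept the filter set on all 6 libraries, so this adds no support. The share of all tested genes' calls that held was not counted. The count of all higher calls was 10 without celastrol replicate 1, 12 without any 1 ANIT library, 17 without celastrol replicate 3 and 20 without celastrol replicate 2. Calls over all tested genes, in either direction, moved in these fits too. They numbered 2652 with all libraries, 1127 without celastrol replicate 1 and 1269 to 1845 without 1 ANIT library. Without celastrol replicate 3 they numbered 1693, and without celastrol replicate 2 they numbered 3841. Under median-ratio scaling 19 were higher and 1 lower (backgrounds 7.49% and 11%), and rescaled to TPM 16 were higher and 4 lower (backgrounds 3.67% and 36%). After quantile normalization 18 were higher and 1 lower (backgrounds 8.24% and 8.99%), and with median-ratio scaling and no filter 20 of the 42 were higher and 0 lower (backgrounds 3.48% and 4.91%).

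**Figure D2:**
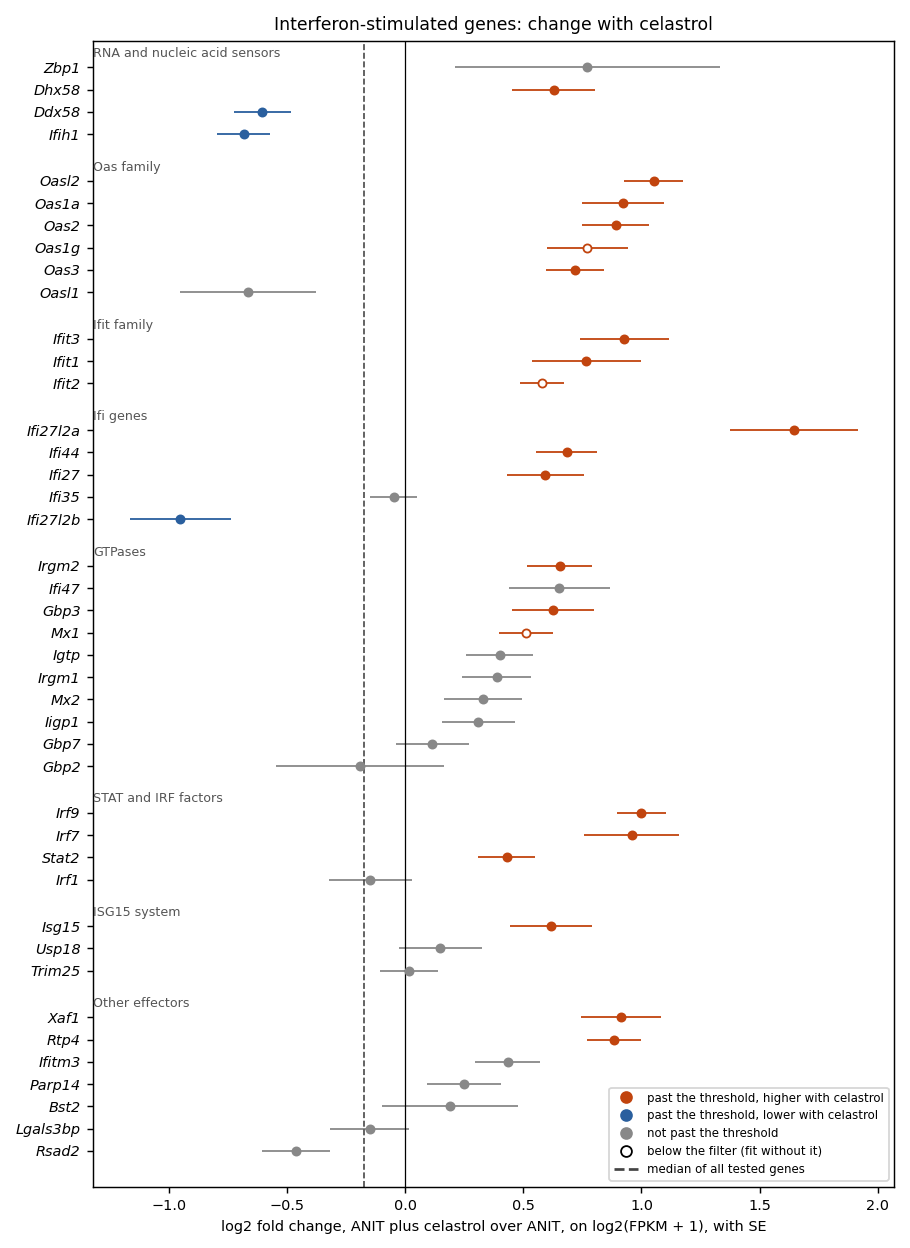
Log2 fold change (ANIT plus celastrol over ANIT, on log2(FPKM + 1)) with its standard error for the 42 members by class, 3 libraries a group; the dashed line is the median of all tested genes, -0.17, and open points come from the fit without the filter. The changes run from -0.95 for Ifi27l2b to 1.65 for Ifi27l2a, and the Oas, Ifit and STAT and IRF classes lie mostly to the right of 0.

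The 3 cytosolic RNA sensors of the RIG-I family did not move together. Ifih1 (MDA5, which binds long double-stranded RNA; chromosome 2, positions 62595798 to 62646255 in mm10) had 5.39, 4.6 and 5.17 FPKM in celastrol livers, against 7.55, 9.21 and 9.47 FPKM in ANIT livers. Ddx58 (RIG-I, which recognises RNA ends with a 5′ triphosphate; chromosome 4, positions 40203773 to 40239828) had 6.35, 4.55 and 5.42 FPKM in celastrol livers, against 8.38, 9.23 and 8.59 FPKM in ANIT livers. Both sensors signal through Mavs, and for both every celastrol library lay below every ANIT library. Ifih1 fell (log2 fold change -0.68, SE 0.11, limma adjusted p = 0.0062), and so did Ddx58 (log2 fold change -0.60, SE 0.12, limma adjusted p = 0.012). The call of Ifih1 held under each scaling with the filter but not under median-ratio scaling with every gene tested (adjusted p = 0.062). The call of Ddx58 did not hold under median-ratio scaling (adjusted p = 0.075), with quantile normalization (adjusted p = 0.10) or when ANIT replicate 2 was left out (adjusted p = 0.051).

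Dhx58 (LGP2, the family member without signalling domains, which modulates the other sensors; chromosome 11, positions 100694884 to 100704271) had 6.24, 3.37 and 4.63 FPKM in celastrol livers, against 2.63, 2.48 and 2.81 FPKM in ANIT livers. It rose (log2 fold change 0.63, SE 0.18, limma adjusted p = 0.037), a call lost without celastrol replicate 1 or 3, without any 1 ANIT library (adjusted p from 0.072 to 0.12), with no filter (adjusted p = 0.071) and with quantile normalization (adjusted p = 0.051). The groups did not overlap. Within each library, which needs no scaling between libraries, the log2 ratio of Dhx58 to Ddx58 was -0.025, -0.43 and -0.23 in celastrol livers and -1.67, -1.90 and -1.61 in ANIT livers. The ratio of Dhx58 to Ifih1 was 0.21, -0.45 and -0.16 in celastrol livers and -1.52, -1.89 and -1.75 in ANIT livers. These ratios were set up after the values were seen, among 4 such pairs, and each has an exact two-sided permutation p of 0.1, the smallest possible, and an adjusted p of 0.1. Dhx58 lay higher, and Ddx58 and Ifih1 lower, in every celastrol library, so this p was fixed beforehand and adds no support. Zbp1, a sensor of Z-form nucleic acids that can start necroptosis, had 18.21, 7.88 and 11.12 FPKM in celastrol livers, against 2.70, 6.47 and 14.04 FPKM in ANIT livers. Its groups overlapped, its ANIT libraries differed more than 5-fold, and missed the threshold (log2 fold change 0.77, SE 0.56, limma adjusted p = 0.35).

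The Oas genes encode oligoadenylate synthetases, which answer double-stranded RNA by making the activator of RNase L. Apart from Oasl1 they were scarce in both groups. In 5 of 6 all celastrol libraries lay above all ANIT libraries, against 7.39% of all listed genes. Oasl2 had 2.73, 2.16 and 2.07 FPKM in celastrol livers, against 0.66, 0.46 and 0.68 FPKM in ANIT livers, a ratio of means of 3.87 (log2 fold change 1.05, SE 0.13, limma adjusted p = 0.0019). Oas2 had 2.88, 2.04 and 1.90 FPKM in celastrol livers, against 0.66, 0.71 and 0.89 FPKM in ANIT livers (log2 fold change 0.89, SE 0.14, limma adjusted p = 0.0055). Oas3 had 1.66, 1.55 and 1.30 FPKM in celastrol livers, against 0.39, 0.63 and 0.54 FPKM in ANIT livers (log2 fold change 0.72, SE 0.12, limma adjusted p = 0.0069). For all 3 the groups lay well apart, by more than the spread within either. Because 1 FPKM is added before the logarithm, these log2 values understate the change, and the ratio of means was 3.02 for Oas2 and 2.89 for Oas3. Oasl2, Oas2 and Oas3 passed the filter only through their celastrol libraries. In the fit without it their limma adjusted p-values were 0.0048, 0.012 and 0.011.

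Oas1a averaged 3.21 ± 0.91 FPKM in celastrol livers and 1.21 ± 0.28 FPKM in ANIT livers (SD, n = 3 each) and rose (log2 fold change 0.92, limma adjusted p = 0.0097). Its close paralog Oas1g, at 1.63, 0.67 and 0.94 FPKM in celastrol livers and 0.11, 0.30 and 0.19 FPKM in ANIT livers, rose in the fit without the filter (limma adjusted p = 0.034). The Oas1g call was lost without celastrol replicate 1 or 3 or any 1 ANIT library (adjusted p from 0.067 to 0.11), after quantile normalization (adjusted p = 0.056) and with the replicate number as a block (adjusted p = 0.080). The 2 copies are alike enough that reads may have been split between them, and their separate levels are uncertain. The exception was Oasl1, an Oas-like protein known in mice to hold back translation of Irf7, with 5.84, 3.01 and 4.38 FPKM in celastrol livers against 5.20, 6.80 and 11.14 FPKM in ANIT livers. Its groups overlapped and missed the threshold (log2 fold change -0.66, SE 0.29, limma adjusted p = 0.14).

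Oas2, Oas3, Oas1g and Oas1a lie within 177 kb on chromosome 5 (positions 120730333 to 120907521 in mm10), and Oasl2 and Oasl1 lie within 41.0 kb on the same chromosome (positions 114896936 to 114937915). The log2 ratio of Oasl2 to Oasl1 was -1.1, -0.48 and -1.08 in celastrol livers and -2.98, -3.89 and -4.03 in ANIT livers (exact two-sided permutation p = 0.1, adjusted p = 0.1). This pair was also set up after the values were seen.

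The Ifit proteins bind foreign RNA and hold back its translation, and their genes lie within 99.3 kb on chromosome 19 (positions 34550694 to 34650009). All 3 had higher levels in every celastrol library than in any ANIT library, against 7.39% of all listed genes. Ifit3 had 4.91, 3.98 and 2.46 FPKM in celastrol livers, against 1.34, 1.5 and 1.53 FPKM in ANIT livers (log2 fold change 0.93, SE 0.19, limma adjusted p = 0.013). Ifit1 had 3.19, 1.60 and 1.46 FPKM in celastrol livers, against 0.49, 1.14 and 0.71 FPKM in ANIT livers (log2 fold change 0.77, SE 0.23, limma adjusted p = 0.048). Ifit2, which stayed below 1 FPKM, had 0.95, 0.99 and 0.74 FPKM in celastrol livers, against 0.28, 0.19 and 0.33 FPKM in ANIT livers (log2 fold change 0.58, SE 0.09, limma adjusted p = 0.014 without the filter). Ifit1 sat at the threshold. Its call was lost without celastrol replicate 1 or any 1 ANIT library (adjusted p from 0.063 to 0.13), with no filter (adjusted p = 0.083), under median-ratio scaling (adjusted p = 0.050), after quantile normalization (adjusted p = 0.058) and with the replicate number as a block (adjusted p = 0.091). That of Ifit2 was lost without celastrol replicate 1 or ANIT replicate 2 (adjusted p of 0.066 and 0.065) and with the block (adjusted p = 0.051). Ifit3 has a near-identical neighbour, Ifit3b, and the share of reads given to each is uncertain.

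The Ifi27 family, small hydrophobic proteins of internal membranes, held the members with the highest and the lowest change. Ifi27l2a had 9.31, 8.05 and 5.46 FPKM in celastrol livers, against 1.69, 0.95 and 2.75 FPKM in ANIT livers, and rose by a ratio of means of 4.23 (log2 fold change 1.65, SE 0.27, limma adjusted p = 0.0076). Ifi27l2b had 10.21, 5.50 and 5.87 FPKM in celastrol livers, against 15.92, 12.43 and 14.90 FPKM in ANIT livers, and fell (log2 fold change -0.95, SE 0.21, limma adjusted p = 0.019). Ifi27 had 44.25, 46.21 and 33.56 FPKM in celastrol livers, against 23.16, 30.52 and 27.21 FPKM in ANIT livers, and rose (log2 fold change 0.59, SE 0.16, limma adjusted p = 0.034). The 3 genes lie within 23.0 kb on chromosome 12 (positions 103434211 to 103457223), and in none of them did the groups overlap. Of all listed genes, 7.39% had all celastrol libraries above all ANIT libraries and 24.1% had them below.

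Within each library the log2 ratio of Ifi27l2a to Ifi27l2b was -0.13, 0.55 and -0.10 in celastrol livers and -3.24, -3.71 and -2.44 in ANIT livers. The pair thus stood near parity with celastrol and far from it without, and it was set up after the values were seen. Both genes were already separate in opposite directions. The exact two-sided permutation p of 0.1 (adjusted p = 0.1) was therefore fixed beforehand and adds no support. The call of Ifi27l2b did not hold under median-ratio scaling (adjusted p = 0.069), with quantile normalization (adjusted p = 0.091) or without celastrol replicate 3 or ANIT replicate 1 or 3 (adjusted p from 0.058 to 0.063). That of Ifi27 was lost when rescaled to TPM (adjusted p = 0.050), with no filter (adjusted p = 0.064) and without celastrol replicate 1 or 2 or any 1 ANIT library (adjusted p from 0.051 to 0.12). Ifi44, a cytosolic protein induced by type I interferon, averaged 1.20 ± 0.27 FPKM in celastrol livers and 0.37 ± 0.05 FPKM in ANIT livers (SD, n = 3 each) and rose (log2 fold change 0.68, limma adjusted p = 0.010), a call lost without celastrol replicate 1 (adjusted p = 0.051). Ifi35 had 16.0 ± 1.32 FPKM in celastrol livers and 16.6 ± 0.43 FPKM in ANIT livers (SD, n = 3 each) and missed the threshold (log2 fold change -0.05, SE 0.10, limma adjusted p = 0.75).

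**Figure D3:**
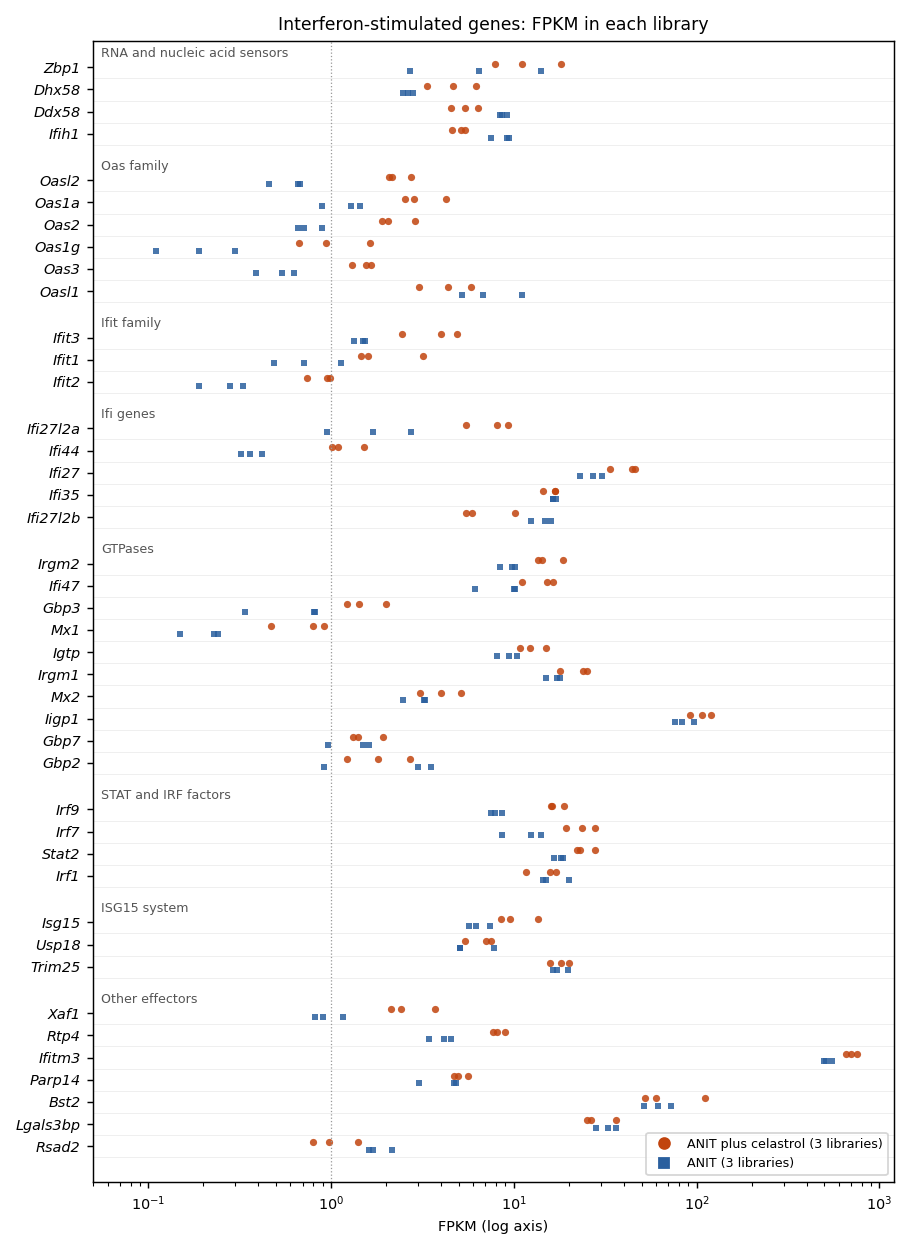
FPKM of each member in each of the 3 ANIT plus celastrol and 3 ANIT libraries, on a log axis, by class; the dotted line marks 1 FPKM, the level the filter uses. Ifitm3, at 656.70 to 753.16 FPKM with celastrol and 495.39 to 553.70 FPKM with ANIT, was the most abundant member, and the Oas genes other than Oasl1, the Ifit genes and Mx1 lay near or below 1 FPKM with ANIT.

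Interferon-inducible GTPases were the largest class, and only 2 of the 9 tested passed, both higher with celastrol (background 4.41%). Of the 10, 9 had a positive log2 fold change, against 38.3% of all listed genes. Gbp3, called higher, passed the filter only through its celastrol libraries. Irgm2, a regulatory immunity-related GTPase that keeps other members of its family inactive on host membranes, had 18.47, 13.62 and 14.35 FPKM in celastrol livers, against 10.14, 9.76 and 8.36 FPKM in ANIT livers (log2 fold change 0.65, SE 0.14, limma adjusted p = 0.014). Gbp3, a guanylate-binding protein, had 1.43, 2.0 and 1.22 FPKM in celastrol livers, against 0.34, 0.82 and 0.81 FPKM in ANIT livers (log2 fold change 0.62, SE 0.17, limma adjusted p = 0.036). In neither did the groups overlap. The call of Gbp3 was lost with no filter (adjusted p = 0.060) and without celastrol replicate 1 or 2 or any 1 ANIT library (adjusted p from 0.055 to 0.096).

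Ifi47, another immunity-related GTPase, had 16.40, 11.06 and 15.17 FPKM in celastrol livers, against 6.10, 10.01 and 10.18 FPKM in ANIT livers, without overlap, but missed the threshold (log2 fold change 0.65, SE 0.21, limma adjusted p = 0.063). Igtp had 14.93, 10.78 and 12.23 FPKM in celastrol livers, against 9.43, 10.41 and 8.06 FPKM in ANIT livers (log2 fold change 0.40, SE 0.14, limma adjusted p = 0.074), and was past the threshold under median-ratio scaling (adjusted p = 0.0498) and quantile normalization (adjusted p = 0.039). Irgm1 averaged 22.4 ± 3.84 FPKM in celastrol livers and 16.7 ± 1.55 FPKM in ANIT livers (SD, n = 3 each, limma adjusted p = 0.092). Iigp1, an effector that disrupts parasite vacuoles and the most abundant GTPase of the list, averaged 106.4 ± 14.3 FPKM in celastrol livers and 85.5 ± 10.2 FPKM in ANIT livers (SD, n = 3 each, limma adjusted p = 0.17). Without celastrol replicate 2, Irgm1, Igtp and Ifi47 passed as higher (adjusted p of 0.012, 0.031 and 0.031). Igtp and Irgm2 overlap on chromosome 11 in exons of the same strand, so their reads are not fully separable.

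Gbp2 had 1.23, 1.81 and 2.71 FPKM in celastrol livers, against 0.91, 3.0 and 3.52 FPKM in ANIT livers, and Gbp7 averaged 1.55 ± 0.33 FPKM in celastrol livers and 1.36 ± 0.35 FPKM in ANIT livers (SD, n = 3 each). Neither passed (log2 fold changes -0.19 and 0.12, limma adjusted p of 0.72 and 0.60), although they lie within 108 kb of chromosome 3 that also holds Gbp3. The dynamin-like Mx proteins trap viral nucleocapsids, and C57BL/6 mice carry a defective Mx1 allele. Mx1 RNA was at 0.92, 0.80 and 0.47 FPKM in celastrol livers and 0.15, 0.24 and 0.23 FPKM in ANIT livers, and it rose in the fit without the filter (log2 fold change 0.51, SE 0.12, limma adjusted p = 0.035). This call was lost without celastrol replicate 1 or 2 or any 1 ANIT library (adjusted p from 0.061 to 0.12) and with the replicate block (adjusted p = 0.077). Mx2 had 5.12, 3.98 and 3.06 FPKM in celastrol livers, against 3.26, 2.47 and 3.23 FPKM in ANIT livers, with overlap, and missed the threshold (limma adjusted p = 0.18).

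Of the 4 STAT and IRF factors 3 rose with celastrol (background 4.41%), among them those that carry the type I signal to the promoter. Irf9, the DNA-binding subunit of the complex with Stat2, had 18.73, 16.04 and 16.19 FPKM in celastrol livers, against 8.62, 7.85 and 7.48 FPKM in ANIT livers, a ratio of means of 2.13 (log2 fold change 1.0, SE 0.10, limma adjusted p = 0.0012), the smallest adjusted p among the 39 tested members. Irf7, which amplifies interferon alpha production and is itself interferon-induced, had 27.71, 23.64 and 19.24 FPKM in celastrol livers, against 8.58, 12.45 and 14.16 FPKM in ANIT livers (log2 fold change 0.96, SE 0.20, limma adjusted p = 0.014). Stat2 had 27.94, 23.06 and 22.17 FPKM in celastrol livers, against 18.58, 18.12 and 16.64 FPKM in ANIT livers (log2 fold change 0.43, SE 0.12, limma adjusted p = 0.036). The groups of all 3 were separate, against 7.39% of all listed genes in that direction. The call of Irf7 was lost without celastrol replicate 1 (adjusted p = 0.056), and that of Stat2 without celastrol replicate 1 or any 1 ANIT library (adjusted p from 0.077 to 0.13), with no filter (adjusted p = 0.064) and when rescaled to TPM (adjusted p = 0.071).

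Irf1, an interferon gamma-induced factor, had 15.69, 17.09 and 11.62 FPKM in celastrol livers, against 15.02, 20.02 and 14.38 FPKM in ANIT livers, with overlap (log2 fold change -0.15, SE 0.18, limma adjusted p = 0.56). Exons of Irf9 overlap those of Rnf31 on the same strand and exons of Irf7 overlap those of Phrf1 on the opposite strand. Rnf31 had 5.36 ± 0.41 FPKM in celastrol livers and 5.15 ± 0.50 FPKM in ANIT livers, and Phrf1 had 4.46 ± 0.22 FPKM in celastrol livers and 5.17 ± 0.44 FPKM in ANIT livers (SD, n = 3 each). Both were below their partner in every library, and how reads in the shared exons were assigned is not given in the sources used here.

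Of the ISG15 system, Isg15, a ubiquitin-like modifier attached to newly made proteins, had 13.60, 9.50 and 8.49 FPKM in celastrol livers, against 6.22, 7.40 and 5.66 FPKM in ANIT livers, without overlap (log2 fold change 0.62, SE 0.17, limma adjusted p = 0.037). The call was lost without celastrol replicate 1 or any 1 ANIT library (adjusted p from 0.061 to 0.10) and with no filter (adjusted p = 0.073). Usp18, which removes Isg15 and blocks the interferon receptor, had 7.05, 5.40 and 7.50 FPKM in celastrol livers, against 5.05, 7.75 and 5.07 FPKM in ANIT livers (log2 fold change 0.15, SE 0.18, limma adjusted p = 0.56). Trim25, a ubiquitin ligase that activates RIG-I, had 19.99, 15.85 and 18.13 FPKM in celastrol livers, against 19.80, 16.33 and 17.14 FPKM in ANIT livers (log2 fold change 0.02, SE 0.12, limma adjusted p = 0.93). Neither of these 2 regulators passed.

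Among the other effectors Rtp4 and Xaf1 rose. Rtp4, a receptor transporter protein induced by type I interferon, had 9.0, 7.69 and 8.14 FPKM in celastrol livers, against 3.42, 4.56 and 4.15 FPKM in ANIT livers (log2 fold change 0.88, SE 0.12, limma adjusted p = 0.0027). Xaf1, a pro-apoptotic partner of the inhibitor Xiap, had 3.69, 2.12 and 2.41 FPKM in celastrol livers, against 0.90, 0.82 and 1.16 FPKM in ANIT livers (log2 fold change 0.91, SE 0.17, limma adjusted p = 0.0090). Neither overlapped, and both calls held whichever library was left out. Ifitm3, which blocks viral entry from endosomes, had 753.16, 702.25 and 656.70 FPKM in celastrol livers, against 495.39, 513.25 and 553.70 FPKM in ANIT livers. It did not overlap and stood just outside the threshold (log2 fold change 0.43, SE 0.14, limma adjusted p = 0.054), passing under median-ratio scaling (adjusted p = 0.019), quantile normalization (adjusted p = 0.042) and without celastrol replicate 2 (adjusted p = 0.034).

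Rsad2 (viperin, which makes a chain-terminating nucleotide) went the other way, at 1.40, 0.80 and 0.98 FPKM in celastrol livers and 1.62, 2.15 and 1.70 FPKM in ANIT livers, without overlap. It missed the threshold (log2 fold change -0.46, SE 0.14, limma adjusted p = 0.052) except when rescaled to TPM (adjusted p = 0.023). Bst2 (tetherin) had 59.60, 111.24 and 52.07 FPKM in celastrol livers, against 51.61, 72.88 and 61.66 FPKM in ANIT livers, and celastrol replicate 2 stood far above the rest (limma adjusted p = 0.66). Parp14 and Lgals3bp overlapped between the groups and missed the threshold (log2 fold changes 0.25 and -0.15, limma adjusted p of 0.27 and 0.54).

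Celastrol replicate 1 had the highest level of the 3 celastrol libraries in 35 of the 42 members, against 18.9% of all tested genes. ANIT replicate 1 had the lowest level of the 3 ANIT libraries in 25 of the 42 members, against 35.4% of all tested genes. The interferon-stimulated genes thus differed between replicates of a group as well as between groups, and the size of a change depends on these libraries.

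**Figure D4:**
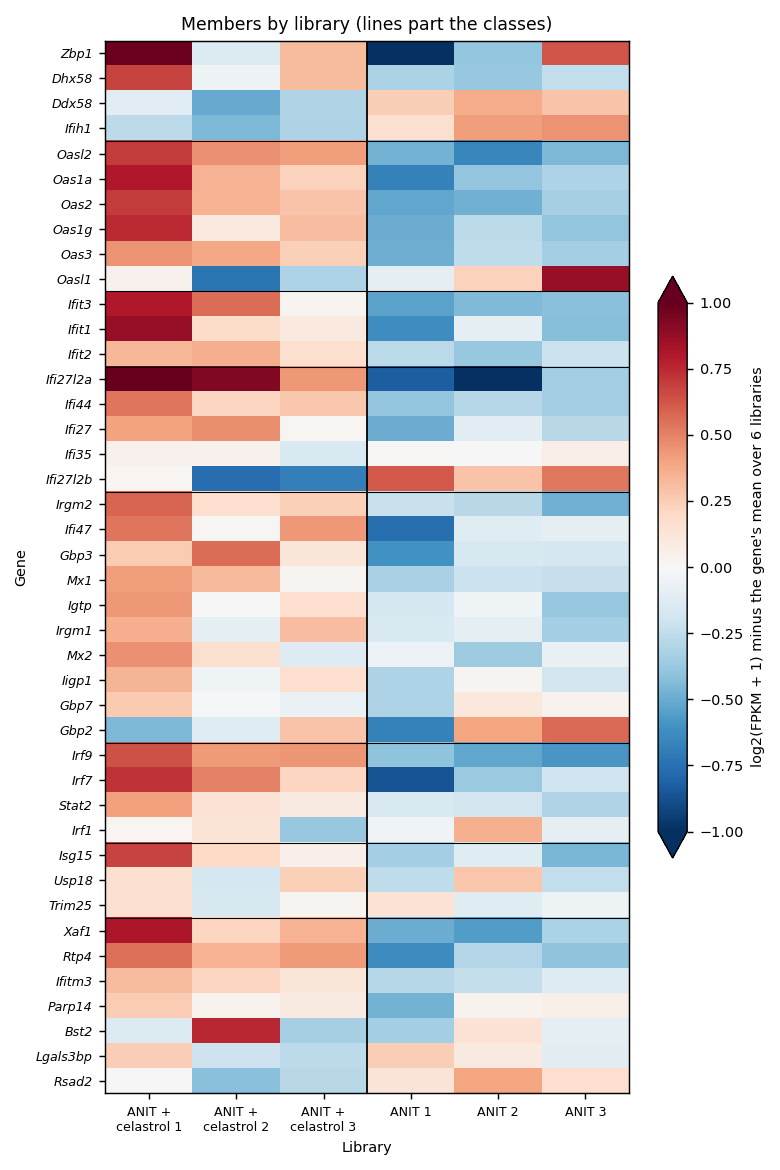
Each member's log2(FPKM + 1) in a library minus its mean over the 6 libraries, with celastrol libraries left of the line and ANIT libraries right of it, and colours cut at 1 in either direction. Most rows are red with celastrol and blue with ANIT, deepest in celastrol replicate 1, and Ifih1, Ddx58, Ifi27l2b and Rsad2 show the opposite.

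The ligands themselves were barely seen. Of 15 interferon genes looked up, 4 were listed in 1 ANIT library each, at 0.07 FPKM (Ifnb1), 0.04 FPKM (Ifng), 0.06 FPKM (Ifnk) and 0.01 FPKM (Ifnz), and none in a celastrol library. At this depth such values rest on a few reads, and no difference in ligand was detectable.

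Of 13 tested genes of the receptor and kinase list 3 fell with celastrol (23.1%, near the background of 20.6%), and both chains of the interferon gamma receptor were among them. Ifngr2 had 7.34, 7.09 and 6.98 FPKM in celastrol livers, against 12.73, 14.58 and 15.22 FPKM in ANIT livers (log2 fold change -0.90, SE 0.10, limma adjusted p = 0.0015). Ifngr1 had 8.84, 10.32 and 8.32 FPKM in celastrol livers, against 13.62, 16.97 and 17.42 FPKM in ANIT livers (log2 fold change -0.74, SE 0.13, limma adjusted p = 0.0074). Neither overlapped between the groups, and both calls held under median-ratio, TPM and quantile scaling and without any 1 library. The type I receptor chains did not pass: Ifnar1 averaged 7.59 ± 0.26 FPKM in celastrol livers and 7.47 ± 0.53 FPKM in ANIT livers, and Ifnar2 61.7 ± 7.48 FPKM in celastrol livers and 57.3 ± 3.72 FPKM in ANIT livers (SD, n = 3 each, limma adjusted p of 0.88 and 0.61).

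Tyk2, a kinase of the type I receptor, had 5.33, 4.21 and 4.63 FPKM in celastrol livers, against 6.91, 7.15 and 7.43 FPKM in ANIT livers, and fell (log2 fold change -0.52, SE 0.10, limma adjusted p = 0.012), but not under median-ratio scaling (adjusted p = 0.084) or quantile normalization (adjusted p = 0.097).

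Of 15 tested genes for sensing and induction upstream of interferon 1 rose (6.67%, background 4.41%) and 3 fell (20%, background 20.6%), shares near those of all tested genes. Ikbke, an inducible kinase of Irf3 and Irf7, fell most, with 10.69, 6.65 and 9.53 FPKM in celastrol livers against 26.99, 36.65 and 34.71 FPKM in ANIT livers (log2 fold change -1.77, SE 0.19, limma adjusted p = 0.0012). Irf2, an antagonist of Irf1 at many promoters, rose, with 26.66, 33.82 and 27.28 FPKM in celastrol livers against 15.33, 19.40 and 20.34 FPKM in ANIT livers (log2 fold change 0.65, SE 0.15, limma adjusted p = 0.019). Ikbke and Irf2 were both separate between the groups. The call of Irf2 was lost without ANIT replicate 1 or 2 (adjusted p of 0.054 and 0.058). The adaptors Traf3 and Tank had log2 fold changes of -0.56 and -0.33 (limma adjusted p of 0.023 and 0.035). Median-ratio scaling took away both of these calls (adjusted p of 0.10 and 0.22), as did quantile normalization (adjusted p of 0.078 and 0.35). That of Traf3 was also lost without celastrol replicate 1 or ANIT replicate 1 or 2 (adjusted p from 0.059 to 0.089), and that of Tank without celastrol replicate 1 or 3 or any 1 ANIT library (adjusted p from 0.053 to 0.13) and with no filter (adjusted p = 0.060).

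**Figure D5:**
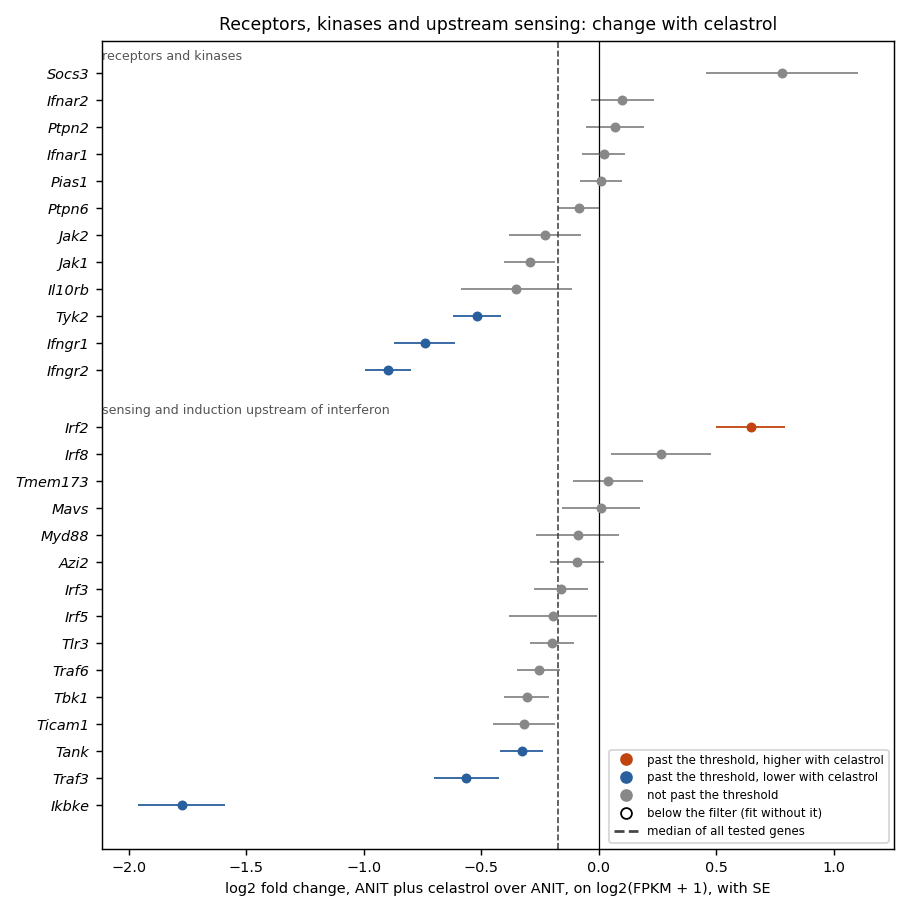
Log2 fold change (ANIT plus celastrol over ANIT, on log2(FPKM + 1)) with its standard error for 12 of the 13 tested receptors and kinases and the tested genes of sensing and induction (15); the dashed line is the median of all tested genes. Ifngr1, Ifngr2, Tyk2, Ikbke, Traf3 and Tank lie below 0 past the threshold, and Irf2 lies above 0 past it.

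A further list of 48 interferon-induced effectors outside the 42 was read beside them. It too was chosen with earlier results of these data known, so its counts are no independent support. Of its 38 tested genes 14 rose (36.8%, background 4.41%) and 1 fell (2.63%, background 20.6%), with a median log2 fold change of 0.36 against -0.17 for all tested genes. Of the 14, Ifi205 and Gbp8 passed the filter only through their celastrol libraries. Cxcl10, the gene that fell, passed it only through its ANIT libraries, so these calls add nothing to the counts. Without the filter 9 of the 48 rose (background 2.26%) and 1 fell (background 9.18%). Ifitm2, a relative of Ifitm3, had 1047.08, 767.08 and 984.66 FPKM in celastrol livers, against 410.85, 359.83 and 422.16 FPKM in ANIT livers (log2 fold change 1.22, SE 0.17, limma adjusted p = 0.0033). Trim30a, Ifi204, a sensor of DNA, and Apol9b had log2 fold changes of 0.79, 0.95 and 1.35 (limma adjusted p of 0.0070, 0.0084 and 0.014), the last lost without celastrol replicate 1 (adjusted p = 0.052). The only gene called lower was Cxcl10, a chemokine induced by both interferon and NF-kB, with 0.41, 0.14 and 0.50 FPKM in celastrol livers against 13.49, 32.02 and 12.76 FPKM in ANIT livers (log2 fold change -3.81, SE 0.34, limma adjusted p = 0.0014). Log2 fold changes were positive for 37 of the 48 and negative for 11, and positive for 38.3% of all listed genes. In 27 all celastrol libraries lay above all ANIT libraries (7.39% of all listed genes). In 5, Cxcl10 and Cxcl9 among them, all lay below (24.1% of all listed genes). For the pathway lists together, the count of rises was 16, and it was 5 without celastrol replicate 1 or ANIT replicate 1, and 10 without ANIT replicate 2 or 3. Calls over all tested genes, in either direction, also fell in these fits, from 2652 to 1127, 1584, 1269 and 1845 in that order.

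Marker genes of other cells moved with the groups in part. The summed level of 8 neutrophil markers was 68.42, 72.98 and 96.0 FPKM in celastrol livers and 31.03, 54.72 and 35.46 FPKM in ANIT livers. Of the 5 tested 4 rose (S100a8, S100a9, Ly6g and Ngp), against 4.41% of all tested genes. Ngp passed the filter only through its celastrol libraries, so its call adds nothing to this count. The 8 listed of 9 Kupffer cell markers summed to 142.6 to 210.4 FPKM in celastrol livers and 78.6 to 190.9 FPKM in ANIT livers, with no marker past the threshold. The 8 monocyte and macrophage markers summed to 80.3 to 85.3 FPKM in celastrol livers and to 41.31, 88.6 and 124.1 FPKM in ANIT replicates 1, 2 and 3, with only Ly6c2 of 6 tested higher. ANIT replicate 1, lowest of its group for most members, was thus also lowest for these macrophage lists. Sinusoidal endothelial markers (7) summed to 34.9 to 64.1 FPKM in celastrol livers and 22.8 to 42.02 FPKM in ANIT livers, with Stab2 of 6 tested higher. Markers of lymphocytes (10) summed to at most 3.82 FPKM and those of plasmacytoid dendritic cells (5) to at most 2.39 FPKM in any library, with none of the first and 1 of the second tested. Cholangiocyte markers (7) summed to 16.4 to 45.2 FPKM in celastrol livers and 39.3 to 47.6 FPKM in ANIT livers. Krt19 of 3 tested was lower, having passed the filter only through its ANIT libraries, and Cftr was below 0.1 FPKM throughout. Stellate cell markers (7) summed to 24.8 to 90.1 FPKM in celastrol livers and 28.6 to 55.7 FPKM in ANIT livers. The part of these cells in the changes of the interferon-stimulated genes was not tested.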

How the data were processed

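Libraries of 3 ANIT plus celastrol and 3 ANIT mouse livers were compared, grouped by their titles. The deposited values are FPKM by gene symbol, 1 table per library, per the file headers. HISAT2, featureCounts and build mm10 are named, without versions, in the submitters' processing notes. The sources used here do not give the annotation, the strand setting or the step to FPKM, so near-identical paralogs and overlapping genes are uncertain. A symbol absent from a library's table counted as 0 FPKM there (the lowest value listed was 0.01), and 2 repeated, date-like names were dropped.

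limma 3.58.1 in R 4.3.3 (trend and robust options, group as the only term, two-sided) was run on log2(FPKM + 1), a pseudocount of 1, for genes that reached 1 FPKM in 3 or more libraries, with Benjamini-Hochberg adjustment over all of them and a threshold of 0.05. The fit was tested on simulated data. The members, lists and tests were chosen with earlier results of these data known. All members are reported, with each library's values for those of lowest p in each class (3 a class) and for those called against the direction of their class. Of the pathway lists, the 4 receptor chains and up to 5 called genes of lowest p per list are named, and 1 gene of the receptor and kinase list is not reported here. Values in each library of other members were added after they were seen. Positions are from GENCODE M21 (mm10), which matched 17576 symbols (96.3%) and all 42 members, and promoter windows from RefSeq (GRCm38.p6). Depth was taken as the read total that brought the values of genes with 1 transcript, 400 to 2500 bases long and at 0.1 to 1 FPKM, closest to whole reads. Annotated lengths may differ from those the authors used, so counts were not rebuilt. Alternatives were median-ratio, TPM and quantile scaling, a smaller pseudocount (0.1), testing every listed gene, variances without the robust option, a block for the replicate number and leaving out each library. A filter on the mean, and median-ratio scaling with every gene tested, were added after seeing the data.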

Additional observations from a re-analysis of the deposited data

How the results depend on the processing

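The number of genes past the threshold (2652) was 4202 when rescaled to TPM and 1127 to 3841 when 1 library was left out. Members called higher (18) numbered 10 to 20 when 1 library was left out and 15 to 20 under the other alternatives. Members called lower (3) numbered 1 under median-ratio scaling and under quantile normalization, 0 under median-ratio scaling with every gene tested (limma, chosen after seeing the data) and 2 to 3 when 1 library was left out. The median log2 fold change of the members (0.43) lay between 0.31 with TPM and 0.71 with quantile normalization. Pathway genes called higher (16) numbered 5 to 13 when 1 library was left out. Those called lower (7) numbered 4 under median-ratio scaling and under quantile normalization, 15 with TPM and 5 to 10 when 1 library was left out. The cause of these shifts was not tested. Same-numbered libraries deviated from their group means with correlations of 0.15, 0.23 and -0.092 for numbers 1, 2 and 3. Libraries of unlike number had -0.24 to 0.18. With 3 libraries a group these values cannot decide whether the numbers pair the libraries. With the replicate number as a block 2585 genes passed, 17 members were higher and 3 lower, and 15 pathway genes were higher and 7 lower.

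The log2 fold changes that turned sign belonged to genes called in none of these settings. Under median-ratio scaling and quantile normalization Ifi35 had 0.12 and 0.22, Irf1 had 0.022 and 0.11 and Lgals3bp had 0.025 and 0.15. With TPM Trim25 had -0.11, Ifnar1 had -0.095 and Ifnar2 had -0.025. When 1 library was left out Ifi35 lay between -0.082 and 0.017, Gbp2 between -0.58 and 0.046, Gbp7 between -0.012 and 0.20, Irf1 between -0.25 and 0.0062, Trim25 between -0.059 and 0.10, Bst2 between -0.14 and 0.40 and Ifnar1 between -0.027 and 0.064. Values near or below 1 FPKM rest on few reads.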
